A study of Rattus norvegicus with 6 samples.

Results

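The 10 genes described here, Myh11, Actg2, Acta2, Cnn1, Tagln, Mylk, Lmod1, Des, Smtn and Myocd, build or switch on the contractile apparatus of smooth muscle. They were taken by symbol, and all 10 of 10 are among the 28282 genes of the count tables. Nuclei of the ileum were sequenced from 6 male wild-type Sprague-Dawley rats, 6 weeks old and acclimatized for 7 days, with 1 library per rat. Severe acute pancreatitis (SAP, 3 rats) was induced by infusing 3% sodium taurocholate backwards into the pancreatic duct at 0.1 mL per 100 g of body weight, with the duct clamped for 5 min. The control rats (CON, 3) had a sham laparotomy, and all 6 rats were fasted after surgery and killed at 24 h. The question addressed was whether these genes differ in the muscle of an organ whose movement is known to fail in pancreatitis. The model is a chemical injury seen at 1 time point, so an earlier or later state of the muscle was not measured.

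Smooth muscle contracts when a rise in calcium activates myosin light chain kinase, which lets smooth muscle myosin pull on filaments of smooth muscle actin. Calponin, transgelin, leiomodin and smoothelin bind and stabilize those filaments, and desmin ties them to dense bodies and to the membrane. Myocardin, with serum response factor (SRF), drives most of these genes through a promoter element called the CArG box. In the gut wall this apparatus marks the muscle layers, and vessels carry it in their own wall cells.

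Of 90461 barcodes, 40970 passed the quality limits of at least 1200 unique molecular identifiers (UMIs, 1 per captured transcript), at least 500 genes and at most 5% mitochondrial UMIs. Passing nuclei numbered 3189 to 9246 and UMIs 5549260 to 28771508 per library. Median mitochondrial shares were 0.125% to 0.700% in the CON libraries and 0.387% to 1.84% in the SAP libraries. CON replicate 2 and SAP replicate 1 list barcodes down to 545 and 502 UMIs, the other libraries down to 1000. Barcodes carry merged cell names, so barcodes shared between libraries could not be counted. P-values measure the spread between these 6 libraries.

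Nuclei were clustered with the 10 genes left out, and the cluster with the markers of smooth muscle cells (SMC), here called SMC-like, held 1283 nuclei, 84 to 515 per library. All 10 SMC markers of the list were detected in every library. Cacna1c, the L-type calcium channel of muscle, stood at 2184 CPM (the share of a gene in the summed UMIs, scaled to the same total in every library) in SMC-like nuclei against 53.0 in all others, and Synpo2 at 589 against 24.8. Ldb3 went against the label, at 125 against 142 CPM. Markers of pericytes and vascular wall cells were present too in these nuclei, with 6 to 8 of 8 detected per library.

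All 10 genes were highest in SMC-like nuclei. Mean levels there, as CPM of the summed UMIs over the 6 libraries, were 3767 ± 1900 (SD, n = 6) for Myh11, the smooth muscle myosin heavy chain, and 1657 ± 1365 for Actg2, the enteric actin. Acta2, the actin of vascular muscle, stood at 159 ± 104 CPM and Myocd at 142 ± 55.0. These values are not divided by gene length, so they do not rank the genes against each other. In epithelial nuclei, which are not muscle, Myh11 stood at 48.8 ± 38.3 CPM and Actg2 at 18.0 ± 11.7, and the other genes except Mylk lay between 2.57 CPM (Myocd) and 25.5 CPM (Smtn). Mylk, the light chain kinase, was also high outside muscle, with 1156 ± 509 CPM in SMC-like nuclei and 345 ± 70.3 in epithelial nuclei. Its level in fibroblast-like (385 ± 90.3) and endothelial-like nuclei (354 ± 34.7) lay within 1 SD of the epithelial level. This gene is known to encode a long non-muscle kinase beside the short smooth muscle form, and counts per gene do not separate them. Smtn was the other gene found widely outside muscle, with 10.3% to 32.2% of its UMIs in SMC-like nuclei and the lowest likeness over classes to the mean of the 10 genes (r = 0.49, against 0.68 for Mylk and 0.97 for Actg2).

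**Figure D1:**
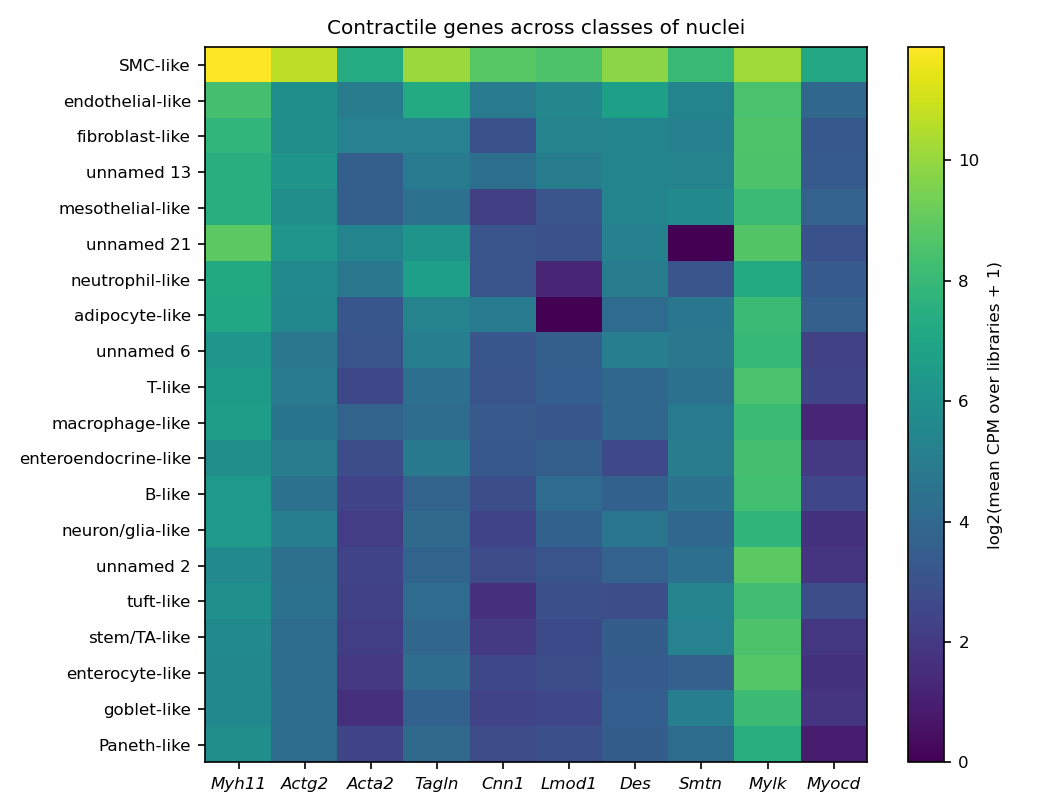
Levels of the 10 genes in each class of nuclei, as log2 of the mean CPM over libraries plus 1 (colour), with genes in columns and classes in rows ordered by their mean. The SMC-like row is the highest for every gene, at 3767 CPM for Myh11, and the Mylk column stays bright outside that row, at 433 CPM in enterocyte-like nuclei.

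Endothelial-like nuclei came next for Myh11 among the named stromal classes, at 333 ± 170 CPM against 226 ± 151 in fibroblast-like nuclei, and these 2 levels did not differ beyond their spread. Tagln (transgelin) stood at 153 ± 81.7 CPM in endothelial-like and 38.0 ± 19.98 in fibroblast-like nuclei, and Des (desmin) at 103 ± 46.6 and 40.6 ± 20.7. Acta2 was close in the 2 classes, at 31.7 ± 28.4 and 37.4 ± 30.0 CPM. Cnn1 (calponin) stood at 29.8 ± 15.1 CPM in endothelial-like nuclei and 6.88 ± 5.23 in fibroblast-like nuclei, with overlapping libraries (4.14 to 46.7 and 0 to 14.4 CPM), and at 4.33 ± 2.37 in epithelium.

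After every nucleus was thinned to 1200 UMIs, 78.6% ± 11.8 of SMC-like nuclei held a Myh11 UMI (84.6% unthinned), against 5.59% ± 4.19 of epithelial nuclei (8.89% unthinned). Mylk UMIs were found in 61.4% of SMC-like and 31.6% of epithelial nuclei (75.5% and 44.8% unthinned). Free RNA gives such UMIs in nuclei that do not express a gene, and for genes such as Myh11 that epithelium should lack the epithelial share serves as the background. Mylk did not behave so, since SAP replicate 2 had the lowest Myh11 level in epithelial nuclei (14.3 CPM) and the highest Mylk level (414 CPM). Epithelial shares with a Cnn1 or a Myocd UMI were 0.581% and 0.346% (0.903% and 0.562% unthinned), against 24.7% and 13.8% in SMC-like nuclei (35.8% and 23.0% unthinned). An SMC-like nucleus showed 3.64 ± 1.17 of the 10 genes at this depth, and an epithelial nucleus 0.475 ± 0.108 (4.67 and 0.714 unthinned).

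Over 20 classes, the genes whose mean log2(CPM + 1) was most like the mean of the 10 genes were Abcc9 (Pearson r = 0.94), Tpm2 (r = 0.93), Nexn (r = 0.93), Jph2 (r = 0.90) and Sntg2 (r = 0.89). Abcc9 encodes a subunit of an ATP-sensitive potassium channel, Tpm2 a tropomyosin of the thin filament, Nexn an actin-binding protein and Jph2 a protein that joins the membrane to the calcium store. The classes share libraries and free RNA, and 16392 genes with at least 10 CPM in their highest class were ranked.

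Within the SMC-like class the genes did not move as 1 block, in levels pooled over all libraries and both groups. Sub-cluster 3 (313 nuclei, led by Carmn and Tafa2) held the highest Myh11 level, 6874 CPM over its summed nuclei, and a Tagln level of 514 CPM. Sub-cluster 6 (232 nuclei) held less Myh11, 5939 CPM, but the highest Tagln (3487 CPM), Des (2620 CPM), Actg2 (3667 CPM) and Cnn1 (1123 CPM) of the 6 sub-clusters of at least 50 nuclei. Its median mitochondrial share, 1.56%, was also the highest of the 6, and the metallothionein gene Mt2A stood at 1261 CPM there against 31.7 in sub-cluster 3. Sub-cluster 8 (174 nuclei) held the muscarinic receptor Chrm2 at 1761 CPM and Abcc9 at 1142 CPM, with Myh11 at 3118 and Tagln at 188 CPM. Myocd was highest in sub-clusters 8 and 3, at 276 and 275 CPM. Sub-cluster 2 (330 nuclei), named SMC from its markers, held Myh11 at 2124 CPM and Tagln at 179. Pooled levels depend on the mix of groups. Sub-cluster 3 had 20, 59 and 144 nuclei in CON and 17, 1 and 72 in SAP, and sub-cluster 6 had 27, 13 and 74 against 22, 19 and 77. By library, Myh11 in sub-cluster 6 was at 18035, 8484 and 7737 CPM in CON and 4446, 2163 and 4754 in SAP (scaled for testing). Differences between sub-clusters and between groups therefore cannot be told apart in the pooled levels.

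The libraries filled these sub-clusters unevenly. Sub-cluster 3 held 17.5% to 43.1% of the SMC-like nuclei of the CON rats, 17 of 85 in SAP replicate 1, 20.7% in SAP replicate 3, and 1 of 84 nuclei (1.19%) in SAP replicate 2. Sub-cluster 6 held 9.49% to 23.7% in CON and 22.1% to 25.9% in SAP. The ranges of the groups overlapped in both. Sub-cluster 8, low in Tagln, held 1.75%, 7.30% and 13.98% in CON and 25.9%, 14.3% and 16.1% in SAP. It was the only sub-cluster of at least 50 nuclei without overlap. The gap was narrow, between 72 nuclei (13.98%) of CON replicate 3 and 12 nuclei (14.3%) of SAP replicate 2. Whether the class was made up differently in the 2 groups was not tested.

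Comparing SAP with CON in SMC-like nuclei, 9 of the 10 genes were lower in SAP and Myocd alone was not. The groups did not overlap for 7 of them, Myh11, Actg2, Acta2, Tagln, Mylk, Lmod1 and Smtn, while 10.6% of the 8660 genes tested were lower without overlap. None of the 10 passed edgeR's quasi-likelihood test after adjustment over all genes tested, a threshold (adjusted p below 0.05 and a log2 fold change of at least 0.5) that 0.0115% of genes passed in the lower direction. At an unadjusted p below 0.05 there were 8 of the 10, beside 6.15% of all genes tested. The median log2 fold change was -1.35 over the 10 genes and -0.01 over all genes tested. All values in the next paragraphs are CPM on the scale of trimmed mean of M values (TMM), with log2 fold changes of SAP over CON and their standard errors (SE).

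**Figure D2:**
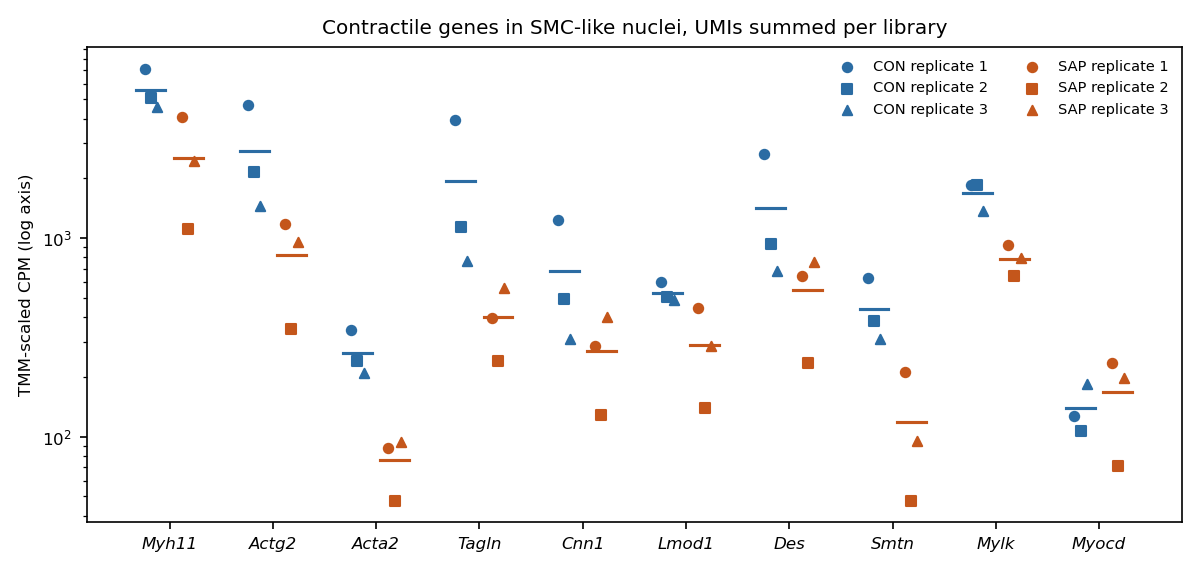
TMM-scaled CPM of each gene in the SMC-like nuclei of each library (log axis), with CON in blue, SAP in orange, 1 marker shape per replicate number and bars at the group means. Acta2 lies at 209 to 343 in CON and 47.5 to 94.2 in SAP, while Myocd overlaps between the groups.

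Myosin and the actins came first. Myh11 stood at 7144, 5053 and 4590 in CON replicates 1 to 3 and at 4065, 1106 and 2446 in SAP replicates 1 to 3. Every SAP library lay below every CON library, at a log2 fold change of -1.14 ± 0.60 (SE) that did not pass (edgeR, adjusted p = 0.516) and was -0.75 without SAP replicate 2. Actg2, the actin of gut muscle, stood at 4660, 2164 and 1460 in CON and at 1172, 349 and 954 in SAP, giving -1.75 ± 0.59 (edgeR, adjusted p = 0.263), and without CON replicate 1 it was -1.14. Acta2 stood at 343, 240 and 209 in CON and at 87.9, 47.5 and 94.2 in SAP, 3.42-fold lower, with a log2 fold change of -1.77 ± 0.34. It had the lowest p of the 10 genes (edgeR, adjusted p = 0.0780). Actg2 and Acta2 encode nearly the same protein, and how the counting split reads between them is uncertain.

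Acta2 was also the only one of 6 genes with a RefSeq promoter entry (GRCr8, 250 bases before to 50 after the annotated start) that held a CArG-like stretch. Searched for, on both strands at once because the frame is its own complement, was the CArG box by its name, with a core of 6 bases of A or T, or with 1 G or C allowed in that core. Of 33469 promoters in the table, 1.64% held an exact box and 9.42% one of either kind. None of the 6 genes, Acta2, Actg2, Cnn1, Mylk, Des and Smtn, held an exact box in this window. Each had 1 annotated start, and whether muscle uses that start was not tested, so a box outside the window would be missed. Myh11, Tagln, Lmod1 and Myocd had no entry. The stretch of the Acta2 promoter is shown because it holds both matches, chr1:241172504-241172653 on the minus strand of GRCr8, 5′ to 3′, with the CArG-like stretches in capitals, the first ending 124 and the second 74 bases before the start:
Acta2: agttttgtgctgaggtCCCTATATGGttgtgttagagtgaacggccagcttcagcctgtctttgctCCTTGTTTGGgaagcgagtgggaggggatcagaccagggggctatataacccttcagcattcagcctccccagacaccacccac
A match is a description of these letters, and it says nothing of whether SRF was bound there. Mean levels of Srf itself in SMC-like nuclei were 100.5 CPM (CON) and 81.0 CPM (SAP), a log2 fold change of -0.34 ± 0.36 (edgeR, adjusted p = 0.785).

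Of the proteins that bind the filaments, Tagln and Smtn were the furthest apart. Tagln stood at 3914, 1137 and 768 in CON and at 395, 241 and 562 in SAP, 4.83-fold lower, a log2 fold change of -2.27 ± 0.63 (edgeR, adjusted p = 0.176). Much of its size rested on CON replicate 1, and without that library the log2 fold change was -1.24. Smtn (smoothelin, found in contractile muscle cells) stood at 630, 382 and 310 in CON and at 212, 47.5 and 95.4 in SAP, which put the log2 fold change at -1.999 ± 0.49 (edgeR, adjusted p = 0.135). Neither gene overlapped between groups. Lmod1 (leiomodin, which nucleates actin filaments) stood at 602, 504 and 488 in CON and at 447, 139 and 285 in SAP, -0.90 ± 0.39 on the log2 scale and -0.53 without SAP replicate 2.

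Cnn1 and Des overlapped. Cnn1 stood at 1232, 496 and 310 in CON and at 286, 129 and 400 in SAP, giving -1.31 ± 0.55 on the log2 scale, which was -0.54 without CON replicate 1. Des stood at 2663, 933 and 680 in CON and at 644, 234 and 761 in SAP, giving -1.38 ± 0.59, which was -0.55 without CON replicate 1. In both genes SAP replicate 3 lay above CON replicate 3.

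Mylk had the tightest groups. It stood at 1856, 1850 and 1363 in CON and at 923, 641 and 796 in SAP, giving -1.10 ± 0.37 on the log2 scale (edgeR, adjusted p = 0.251). Leaving out each library in turn moved it only from -1.24 to -0.94. Myocd, the coactivator that stands above the other 9, was at 128, 106 and 184 in CON and at 234, 71.2 and 198 in SAP. The groups overlapped, with a log2 fold change of 0.22 ± 0.41 (edgeR, adjusted p = 0.891), and without SAP replicate 1 it was -0.01.

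DESeq2 on the same sums called 5 of the 10 genes lower, Actg2, Acta2, Tagln, Mylk and Smtn, where it called 0.603% of its genes lower. With the replicate number as a block, edgeR called Smtn (adjusted p = 0.0423) and 0.208% of genes lower, and with no filter on low counts it called 6 of the 10 and 0.760% of genes lower. SAP replicate 2 was the lowest of the 6 libraries for every one of the 10 genes.

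Other measures moved with these differences. Nuclei of the SMC-like class had median mitochondrial shares of 0.748%, 0.210% and 0.247% in CON and of 1.92%, 1.55% and 0.424% in SAP, so 2 SAP libraries lay above all others. Among SMC-like nuclei with at most 2% mitochondrial UMIs, a limit chosen after the data were seen, the median log2 fold change of the 10 genes was -1.23, with 9 lower and none called. Summed levels of the 8 pericyte and vascular markers in SMC-like nuclei were 280 to 616 CPM in CON and 978 to 1586 CPM in SAP, with Higd1b and Ndufa4l2 at 0 in every SAP library and in CON replicate 2, and Ndufa4l2 at 0 in CON replicate 3 too. Abcc9, 1 of the 8, made up part of these sums, at 67.5, 169 and 299 TMM-scaled CPM in CON and 637, 380 and 552 in SAP. It was also the gene most like the 10 over classes. Whether the other markers of this list differed between the groups without Abcc9 was not tested. The 10 SMC markers summed to 4746 to 7021 CPM in CON and to 5330, 2625 and 6312 CPM in SAP replicates 1 to 3. The part of the pericyte markers in the result was not tested. The 8 enterocyte markers summed to 491 to 1825 CPM in CON and 967 to 2249 in SAP, and the 4 neutrophil markers to 0 to 12.1 CPM in CON and 104 to 1301 in SAP, and their part was not tested either. The median UMI count per SMC-like nucleus was 3150 in CON replicate 1 and 1505 to 2371.5 in the other libraries. Paneth cell markers, which SMC-like nuclei should lack, summed to 16908 CPM in CON replicate 1 and 23370 CPM in SAP replicate 1 and to 1334 to 2760 CPM elsewhere, and the part of this free RNA in the result was not tested.

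At a fixed depth of 1200 UMIs per nucleus, SMC-like nuclei showed 5.01, 4.85 and 3.95 of the 10 genes in CON and 3.02, 2.05 and 2.96 in SAP (6.89, 5.65 and 4.77 against 3.58, 3.30 and 3.81 unthinned). Tagln UMIs were found in 55.3%, 51.1% and 31.3% of these nuclei in CON and in 24.7%, 10.7% and 23.0% in SAP, and unthinned in 67.5%, 54.7% and 37.9% against 29.4%, 21.4% and 29.3%. Smtn was found in 28.2% to 43.9% in CON and 5.95% to 16.5% in SAP (36.5% to 71.1% and 14.1% to 24.7% unthinned), and Myocd in 10.2% to 17.9% and 5.95% to 18.8% (14.6% to 32.5% and 16.7% to 26.7% unthinned). Nuclei with none of the 10 genes made up 0.877% to 2.92% in CON and 8.33% to 16.7% in SAP (0% to 2.92% and 4.60% to 15.3% unthinned). Only the 10 genes were thinned, so the share of all genes without overlap by this measure is not known. For Tagln, Smtn and the nuclei with none of the genes the groups did not overlap, while for Myocd they did. Cnn1 overlapped as well, at 22.1% to 50.0% in CON and 8.33% to 22.4% in SAP (29.9% to 72.8% and 20.2% to 29.9% unthinned).

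The same comparison was made inside sub-clusters 2 and 6, which every library filled with 10 nuclei or more, a choice made after the data were seen. In sub-cluster 6, CON libraries held Actg2 at 14227, 6731 and 3880 and SAP libraries at 705, 891 and 1800, 7.24-fold lower (edgeR, adjusted p = 0.0371). Smtn there was at 1660, 677 and 749 in CON and at 292, 70.7 and 215 in SAP, 5.58-fold lower (edgeR, adjusted p = 0.0204). Acta2 (adjusted p = 0.0429) and Tagln (adjusted p = 0.0469) passed too, so 4 of the 10 genes were called in sub-cluster 6, where edgeR called 1.37% of the 3650 genes tested lower. Sub-cluster 6 stayed unnamed, since its SMC score (3.41) was close to its fibroblast score (3.21). SAP replicates 1 and 2 and CON replicate 2 gave only 22, 19 and 13 nuclei to it. In sub-clusters 2 and 3 together, both named SMC, 9 of the 10 genes were lower with a median log2 fold change of -0.91. EdgeR called none of them (0.0395% of 5060 genes called lower). Only Acta2, Mylk and Smtn were without overlap there, while 8.28% of the genes tested were lower without overlap. SAP replicate 1 had the highest Actg2 of the 6 libraries there, 2372 against 1484 to 2253 in CON. Its Myh11 (6496) lay within the CON range (5826 to 6530). In sub-cluster 2, 8 of the 9 genes tested were lower and none was called (0.0285% of 3514 genes called lower), with a median log2 fold change of -0.93. Myocd was not lower in either, at 0.48 ± 0.41 in sub-cluster 6 and 0.14 ± 0.50 in sub-cluster 2 on the log2 scale.

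**Figure D3:**
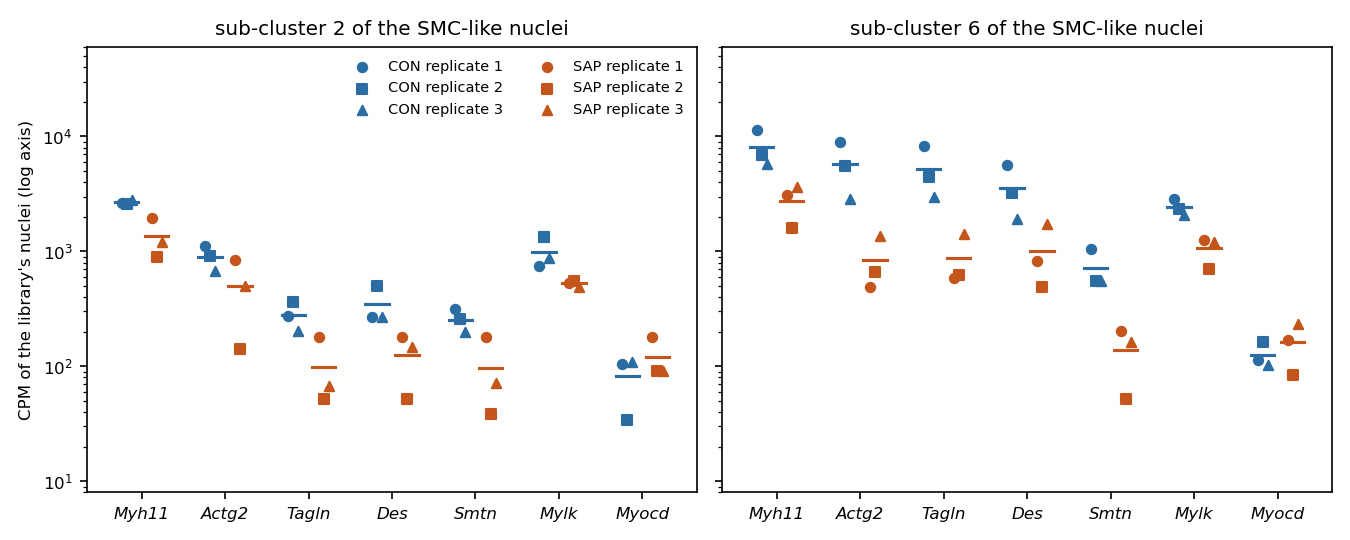
CPM of 7 of the genes in sub-clusters 2 and 6 of the SMC-like nuclei by library (log axis), with CON in blue, SAP in orange and bars at the group means. In sub-cluster 6 every SAP library lies below every CON library for Actg2, Tagln and Smtn, and Myocd overlaps in both panels.

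In the other classes none of the 10 genes passed edgeR's test. In fibroblast-like nuclei 7 of the 8 genes tested were lower, with a median log2 fold change of -0.68. EdgeR called none of them (0.0134% of genes called lower), and only Tagln had an unadjusted p below 0.05, as did 2.28% of genes in that direction. Cnn1 and Myocd were left out there for low counts, at 0 to 14.4 and 0 to 28.7 CPM per library. In endothelial-like nuclei 5 of the 7 genes tested were lower, with a median of -0.09 and none called, as with all genes tested (0%). Acta2, Cnn1 and Myocd were left out there, at 0 to 77.4, 4.14 to 46.7 and 0 to 36.7 CPM per library.

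In epithelial nuclei 9 of the 10 genes were also lower, with a median log2 fold change of -0.73, and edgeR called none (0% of genes called lower). DESeq2 called Actg2 and Smtn lower there, among 126 of its 13883 genes called lower. Smtn differed between epithelial classes, at 37.0 CPM in stem and transit-amplifying-like and 11.3 CPM in enterocyte-like nuclei, so its level there cannot be read as background alone. Actg2 stood at 23.3, 21.8 and 31.9 in CON and at 13.3, 4.18 and 10.8 in SAP, giving -1.47 ± 0.43. Smtn stood at 47.4, 34.9 and 30.6 in CON and at 16.9, 7.93 and 16.4 in SAP, -1.46 ± 0.35. These 2 genes had an unadjusted p below 0.05, as did 6.12% of all genes in that direction. Mylk in epithelial nuclei stood at 342, 359 and 337 in CON and at 293, 447 and 283 in SAP, -0.02 ± 0.23. Without SAP replicate 1 or 3 it was 0.05 or 0.09. Epithelial types are pooled here, and enterocyte-like nuclei made up 15.6% to 18.2% of passing nuclei in CON and 32.6%, 43.2% and 15.1% in SAP. Within enterocyte-like nuclei Mylk was lower without overlap, at 443, 606 and 469 CPM in CON and 306, 410 and 364 in SAP (library totals). Mylk overlapped in the other epithelial types, and none of these was tested singly.

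The difference between the classes was tested as an interaction in edgeR with each library as a block, added after the data were seen. For Mylk, the log2 fold change in SMC-like nuclei was lower than that in epithelial nuclei by a difference of -1.18 ± 0.28 (edgeR, adjusted p = 0.0464), where the median difference of all 14701 genes was -0.13. This call was lost with other scalings (adjusted p = 0.0585 and 0.0724) and without CON replicate 2, SAP replicate 2 or SAP replicate 3 (0.168, 0.123 and 0.0615). For the other 9 genes the difference from epithelium did not pass, with adjusted p from 0.251 (Smtn) to 0.992 (Cnn1), so for these a larger fold in SMC-like nuclei was not shown. Against fibroblast-like nuclei none of the 10 passed, with the lowest adjusted p at Mylk (0.170).

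**Figure D4:**
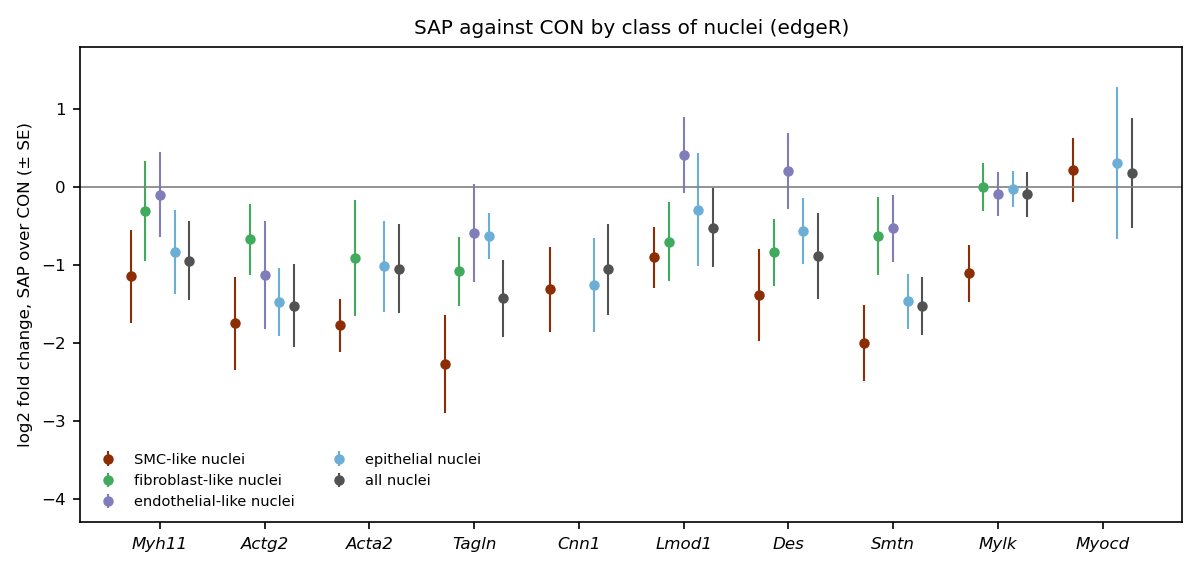
Log2 fold changes of SAP over CON with their SE for each gene in SMC-like, fibroblast-like, endothelial-like, epithelial and all nuclei (edgeR). Values below 0 are lower in SAP. Tagln lies at -2.27 in SMC-like nuclei. Mylk lies near 0 in every class plotted but the SMC-like one, where it is at -1.10. The epithelial value pools several types of nuclei.

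Summed over all nuclei, the SAP libraries were lower for 9 of the 10 genes, with a median log2 fold change of -0.99 over the 10. EdgeR called none (0% of genes called lower), while DESeq2 called Smtn, among 83 of its 15547 genes called lower. Actg2 (-1.52 ± 0.53), Tagln (-1.43 ± 0.49) and Smtn (-1.53 ± 0.37) had an unadjusted p below 0.05, as did 4.47% of genes in that direction. In such a sum fewer muscle nuclei and less RNA per nucleus cannot be told apart. SMC-like nuclei made up 1.23%, 2.19% and 6.12% of passing nuclei in CON and 2.67%, 1.41% and 4.41% in SAP. The groups overlapped, at 3.18% ± 2.59 against 2.83% ± 1.51 (SD, n = 3; exact two-sided permutation p = 0.9, smallest possible 0.1). Of each library's Myh11 UMIs 51.6% to 73.2% lay in SMC-like nuclei, of its Actg2 UMIs 63.9% to 77.7%, and of its Mylk UMIs 2.73% to 15.8%.

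Genes that work beside the 10 were read from lists chosen for gut muscle. Of 25 other contractile and cytoskeletal genes, 23 were lower and 2 higher in SMC-like nuclei of SAP rats. Their median log2 fold change was -0.88, with 13 at an unadjusted p below 0.05, all lower, beside 6.15% of all genes tested at that level and 50.6% of all genes lower. EdgeR called none. Synpo2 (synaptopodin 2, of the Z-disc and dense bodies) stood at 884 ± 41.5 in CON and 256 ± 53.4 in SAP (SD, n = 3; edgeR, adjusted p = 0.0658), and Synm (synemin, a partner of desmin) at 324 ± 191 and 66.8 ± 30.9 (edgeR, adjusted p = 0.0969). The 2 genes on the higher side were Cald1, at 1208 ± 489 and 1303 ± 583, and Cnn2, at 36.1 ± 7.64 and 37.7 ± 22.9. Cald1 (caldesmon) also binds actin, and its groups overlapped.

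Of 25 genes of calcium handling and contraction signalling, 16 were lower and 9 higher, with a median of -0.26, 7 lower at an unadjusted p below 0.05 (6.15% of all genes) and none called by edgeR. Kcnmb1, the muscle subunit of the large-conductance potassium channel, stood at 68.5 ± 2.81 in CON and 26.1 ± 17.0 in SAP, and Ppp1r12b, a targeting subunit of myosin phosphatase, at 604 ± 63.4 and 285 ± 64.7. Orai1 (a calcium entry channel, 86.4 ± 20.7 and 117 ± 26.0) lay on the other side. The kinase Mylk and the phosphatase subunit Ppp1r12b act on the same light chain in opposite ways, and both were lower by a log2 fold change near 1, at -1.10 and -1.07.

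Of 15 SRF and myocardin regulators, 13 were tested, 9 lower and 4 higher, with a median of -0.21. Gata6 stood at 145 ± 32.9 in CON and 77.6 ± 9.26 in SAP, and Mrtfb, a relative of myocardin, at 243 ± 22.2 and 163 ± 3.10. Foxf1 (49.5 ± 7.50 and 78.0 ± 30.3) and Tead1 (453 ± 46.6 and 634 ± 239) were on the higher side, and none of the 13 was called. Of 20 receptors of gut muscle only 8 had enough counts, 4 lower and 4 higher. The muscarinic receptor Chrm3 stood at 606 ± 59.1 in CON and 386 ± 97.1 in SAP, and the tachykinin receptor Tacr2 at 53.5 ± 26.2 and 22.8 ± 7.06. The endothelin receptor Ednra was higher, at 21.1 ± 18.8 and 90.5 ± 36.7, and so was the serotonin receptor Htr2b, at 48.7 ± 4.81 and 81.2 ± 22.5. Ednra held only 3, 4 and 43 UMIs in CON and had enough counts to be tested through the SAP libraries, so its values are a description.

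Opposite in direction were the inflammation and matrix lists. Of 14 genes of inflammation of the muscle layer 10 fell to the filter on low counts, and the 4 left may have passed it through the SAP libraries alone, so their values are a description. EdgeR called none of them (0% of genes called higher). Socs3, a feedback inhibitor of cytokine signalling, stood at 29.0 ± 13.8 in CON and 156 ± 44.2 in SAP, and the chemokine Cxcl1 at 4.20 ± 5.74 and 154 ± 128. Cxcl1 held 1, 0 and 11 UMIs in CON and 41, 20 and 77 in SAP, so it passed the filter through the SAP libraries. Of 13 genes of matrix and the synthetic muscle state 11 were tested, 9 higher and 2 lower. At an unadjusted p below 0.05 there were 6 of the higher, Timp1 among them, beside 5.28% of all genes in that direction. Some of these 6 may have passed the filter through the SAP libraries alone, so the counts are a description. Thbs1 (thrombospondin) stood at 108 ± 55.6 and 532 ± 165, and Timp1, an inhibitor of matrix proteases, at 27.0 ± 29.6 and 250 ± 93.6. Timp1 held 12, 0 and 60 UMIs in CON and passed the filter through the SAP libraries, so its values are a description too. Eln (elastin) ran the other way, at 215 ± 25.2 in CON and 62.7 ± 25.3 in SAP, as did Col1a1, at 78.7 ± 29.4 and 40.7 ± 19.3. Of 6 genes of pacemaker cells 4 were higher and 2 lower, with Etv1 at 25.4 ± 14.1 and 106 ± 42.5, Gja1 at 33.9 ± 12.8 and 64.3 ± 29.1, Kit at 41.6 ± 19.3 and 19.3 ± 11.4, and Kcnn3 at 41.5 ± 41.6 and 27.2 ± 15.4. Etv1 held only 13, 3 and 41 UMIs in CON and may have passed the filter through the SAP libraries, so its values are a description.

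**Figure D5:**
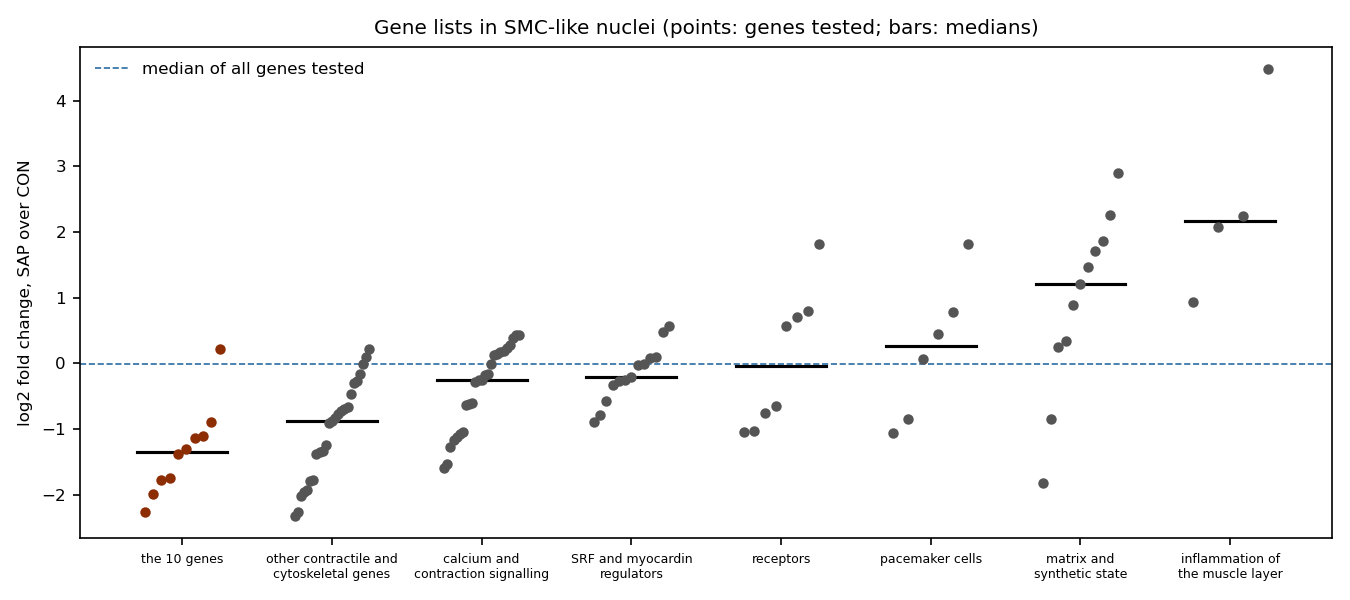
Log2 fold changes of SAP over CON in SMC-like nuclei for the genes tested in each list (points) with the list medians (bars) and the median of all genes tested (dashed line). Medians are -1.35 for the 10 genes, -0.88 for other contractile genes, and 1.20 for matrix and the synthetic state. Only 4 of 14 inflammation genes passed the filter on low counts. Some genes of the inflammation and matrix lists may have passed it through the SAP libraries alone.

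The 5 genes with the most similar pattern over classes did not share 1 direction. Tpm2 stood at 1713 ± 1477 in CON and 427 ± 137 in SAP, Nexn at 461 ± 75.8 and 184 ± 68.7 and Jph2 at 137 ± 18.3 and 65.8 ± 37.7. Abcc9, a potassium channel subunit that is also a vascular marker, was at 178 ± 116 and 523 ± 131, and Sntg2 at 565 ± 264 and 810 ± 314. The only gene called in SMC-like nuclei was St8sia6, a sialyltransferase gene, at 206 ± 51.5 in CON and 3.95 ± 4.26 in SAP (edgeR, adjusted p = 0.00609), and it was also the 1 gene called in fibroblast-like nuclei. In SMC-like nuclei it held 80, 64 and 220 UMIs in CON and 0, 1 and 7 in SAP. It thus passed the filter through the CON libraries, and its values are a description.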

How the data were processed

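The deposited tables hold raw UMI counts for each gene in each barcode, which the authors made with dnbc4tools and did not normalize. The submitters' processing notes name Seurat 4.3.0 and the build mRatBN7.2. Counting of overlapping or near-identical genes is not given in the sources used here. The 10 genes, the lists and the markers were chosen with earlier results of these data known.

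Passing nuclei were log-normalized and clustered (scanpy 1.11.5, 2000 variable genes without the 10 genes and mitochondrial genes, 30 principal components, Harmony re-implemented in numpy, Leiden 0.10.2, 20 neighbours, resolution 0.8). A cluster was named where its markers' mean log2 ratio was at least 0.4 and led the next class by 0.8 with 3 markers detected, limits set after the clusters were seen. No doublets were removed, because the threshold that Scrublet sets itself called 0% of nuclei. An alternative left out the 5% with the highest scores. UMIs were summed per library and class and tested with edgeR 4.0.16 (genes kept by filterByExpr, scaling by TMM, a quasi-likelihood fit with robust dispersions). DESeq2 1.42.0 was the other tool tried. A class needed 10 nuclei in every library. Shares were compared with limma 3.58.1 on logit shares (offset 0.5) and by exact permutation. The edgeR script was tested on simulated data. Named were the 10 genes, up to 2 per list and direction by p, genes called without overlap and the 5 most similar over classes. One gene that this rule names is not reported here. Promoters are from RefSeq (GRCr8), and levels were not divided by length, since no annotation of the files' build was used.

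Same-numbered CON and SAP libraries deviated together over all nuclei (r = 0.63, 0.23 and 0.47) and less in SMC-like nuclei (r = 0.20, 0.083 and 0.081). No source states a pairing.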

Additional observations from a re-analysis of the deposited data

Results flagged for a closer look

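Mylk was the 1 gene of the 10 that passed the interaction test between 2 classes of nuclei, a test added after the data were seen. The Mylk log2 fold change in SMC-like nuclei minus that in epithelial nuclei was -1.18 ± 0.28 (edgeR interaction test, adjusted p = 0.0464), with -1.10 in SMC-like and -0.02 in epithelial nuclei. With other scalings the call was lost (edgeR interaction test, adjusted p = 0.0585 and 0.0724). Epithelial nuclei pool several types, and within enterocyte-like nuclei Mylk was lower in SAP without overlap, which was not tested. Of 14701 genes tested in this way 98 passed. The median difference over all genes was -0.13, and the adjusted p lay between 0.000179 and 0.168 when a library was left out. Groups of 3 libraries were too small to be tested for single libraries far from the others.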

How the results depend on the processing

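In SMC-like nuclei 9 or 10 of the 10 genes stayed lower under each alternative that kept 10 genes, and calls depended on the method. DESeq2 called 87 genes higher and 56 lower (5 of the 10 genes). Scaling by library total alone called 19 and 14, where TMM called 0 and 1, so the shares of calls in each direction cannot be compared. No filter on low counts gave 165 and 177 (6 of the 10 genes) and the replicate block 25 and 18 (1 of the 10 genes). Calls were 1 higher and 2 lower in the SMC-named sub-clusters only, 0 and 2 at most 2% mitochondrial UMIs, 39 and 50 in sub-cluster 6 only (4 of the 10 genes), and 0 lower without integration and without the libraries that list low-UMI barcodes. Leaving out each library gave 0 to 64 higher and 1 to 20 lower, with 0 to 1 of the 10 genes. The largest counts came without CON replicate 3, where Acta2 was called. Without SAP replicate 2 calls were 3 and 2, and without SAP replicate 3 they were 12 and 5. Myocd was -0.17 without the libraries that list low-UMI barcodes and -0.011 (without SAP replicate 1) to 0.62 when a library was left out. The log2 fold change of Myh11 was -0.75 without SAP replicate 2.

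Over all nuclei DESeq2 called 110 higher and 83 lower (1 of the 10 genes, Smtn), and leaving out each library 0 to 1 higher and 0 to 1 lower. The replicate block called 0 genes there. In fibroblast-like nuclei the counts were 3 and 4 with DESeq2, 41 and 29 with no filter, 0 lower with the replicate block and without the libraries that list low-UMI barcodes, and 0 to 1 lower when a library was left out. In endothelial-like nuclei DESeq2 called 2 lower, library total alone 1 lower, no filter 18 higher and 8 lower, the replicate block 1 lower, and leaving out each library 0 to 3 higher and 0 to 1 lower. In epithelial nuclei DESeq2 called 203 higher and 126 lower (2 of the 10 genes, Actg2 and Smtn), and leaving out each library 0 to 1 higher and 0 to 1 lower. Mylk there was 0.0053 with DESeq2's size factors in edgeR, 0.083 without the libraries that list low-UMI barcodes and -0.26 to 0.092 when a library was left out, with 0.050 without SAP replicate 1. The logit difference in the SMC-like share was 0.0053 with the 10 genes among the variable genes, 0.058 as a share of stromal nuclei, -0.37 to 0.45 when a library was left out, 0.30 without SAP replicate 2 and -0.0019 with the replicate block. The cause of these changes was not tested. The alternatives in sub-clusters, at most 2% mitochondrial UMIs and in endothelial-like and epithelial nuclei were chosen after the data were seen. At most 1% mitochondrial UMIs was not run for SMC-like and fibroblast-like nuclei, which left fewer than 10 nuclei in SAP replicate 1. With 84 to 515 SMC-like nuclei per library, low genes such as Acta2 rest on as few as 12 UMIs.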
